A study of Xenopus laevis with 8 samples.

Results

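The genes described here are the homeobox transcription factors of the Spemann-Mangold organiser, the dorsal signalling centre of the amphibian gastrula. They were chosen by name: a gene of the count table was a member if its identifier, without a final .L or .S, was *sia1*, *sia2*, *gsc*, *lhx1*, *otx2*, *not* or *hhex*. The rule used no measured value, but the names were chosen with earlier results of these data known. It found 12 gene copies under 7 names among the 49086 genes listed. *Xenopus laevis* carries its genome in 2 sub-genomes, and the endings .L and .S mark the copies (homeologs) of a gene on the long and the short chromosome of a pair. *sia1*, *gsc*, *lhx1*, *otx2* and *not* were listed in both copies, *sia2* as the .S copy and *hhex* as the .L copy.

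In the frog embryo, maternal β-catenin is stabilised on the dorsal side during the cleavage stages. In the blastula it acts there with Tcf/Lef factors to switch on *sia1* and *sia2*, which encode the related homeodomain activators Siamois and Twin. These proteins, together with Nodal signalling through Smad2 and FoxH1, turn on the next tier of organiser genes, among them *gsc* and *lhx1*. The homeobox proteins of the organiser control secreted antagonists of BMP, Wnt and Nodal ligands, through which the organiser patterns the axis and the head.

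The study asked what maternal Wnt11b does for the embryonic axis. RNA was sequenced from whole embryos of *X. laevis* at Nieuwkoop and Faber stage 10.5, the mid-gastrula, and stage 9, the late blastula. M/Z embryos came from eggs of females homozygous for a small frameshift deletion in *wnt11b.L* (allele emNXR, made in the inbred J strain), fertilised by mutant sperm, so they lacked both maternal and zygotic function. +/Z embryos came from eggs of wild-type J-strain females fertilised by mutant sperm and were heterozygous, so every embryo in the comparison carried a mutant paternal allele. Each of the 4 groups had 2 libraries, and each library was a pool of 3 embryos. The labels do not say which females or clutches the pools came from, so the p-values below measure the spread between pools, and a difference between mothers cannot be told apart from the genotype. The mutants descend from 1 founder female, and the study described their phenotype as variable between embryos. It also reported that gastrulation was delayed in all embryos of mutant mothers, with mesoderm and endoderm markers lower and later. Whether a delay has a part in the differences below was not tested.

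Library totals were between 24720921 and 37265579 counts, and M/Z libraries were 1.25 times as deep on average as +/Z libraries. Levels are given as CPM, the counts of a gene per 1000000 counts of its library, with library sizes scaled by the TMM method, which sets aside genes that differ strongly between libraries. A count of 3, at or below which a gene was taken as not detected, equals 0.0715 to 0.136 CPM in these libraries, and limits of this kind cover counting error only. All 12 of 12 members passed the filter on low counts, as did 25448 genes in all. The small deletion cannot be seen in counts per gene, and *wnt11b.L* did not pass the test at stage 10.5 (log2 fold change of M/Z over +/Z -0.47, adjusted p = 0.197, *edgeR*) or at stage 9 (adjusted p = 0.920). Differences are log2 fold changes with their standard error (SE), tested across all genes with the quasi-likelihood test of *edgeR*, and an adjusted p (Benjamini-Hochberg) under 0.05 is called a change.

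The 2 M/Z libraries of stage 10.5 differed in 1 direction over the members. Genes at large were spread alike in both genotypes at this stage, with replicates a median of 0.3726 (M/Z) and 0.3735 (+/Z) log2 units apart. Among the members, *sia1.S* (4 and 0 counts in these M/Z libraries) and *sia2.S* (6 and 1 counts) were sparse, so their order rests on few reads. Replicate 1 was higher than replicate 2 in all 12 members, by a median of 2.52-fold, while in +/Z embryos of this stage replicate 1 was higher in 5 of 12, with a median ratio of 0.910. The same held for other genes that come on between these stages. Among 2654 genes over 4-fold higher at stage 10.5 than at stage 9 in +/Z embryos, 85.9% were higher in replicate 1 of the M/Z embryos, with a median ratio of 1.59, against 59% in replicate 1 of the +/Z embryos, with a median ratio of 1.11. Among 1379 genes over 4-fold lower at stage 10.5, 11.8% were higher in the M/Z replicate 1. Replicate 2 of the M/Z embryos was thus nearer to stage 9 in both classes of genes. Each call at stage 10.5 is therefore also given without 1 M/Z library at a time. Whether these pools differed in developmental time was not tested. Both classes of genes were chosen in the +/Z libraries (adjusted p under 0.05, *edgeR*), which favours genes whose +/Z replicates agree. The +/Z ratios are thus no independent yardstick for the M/Z ratios.

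**Figure D1:**
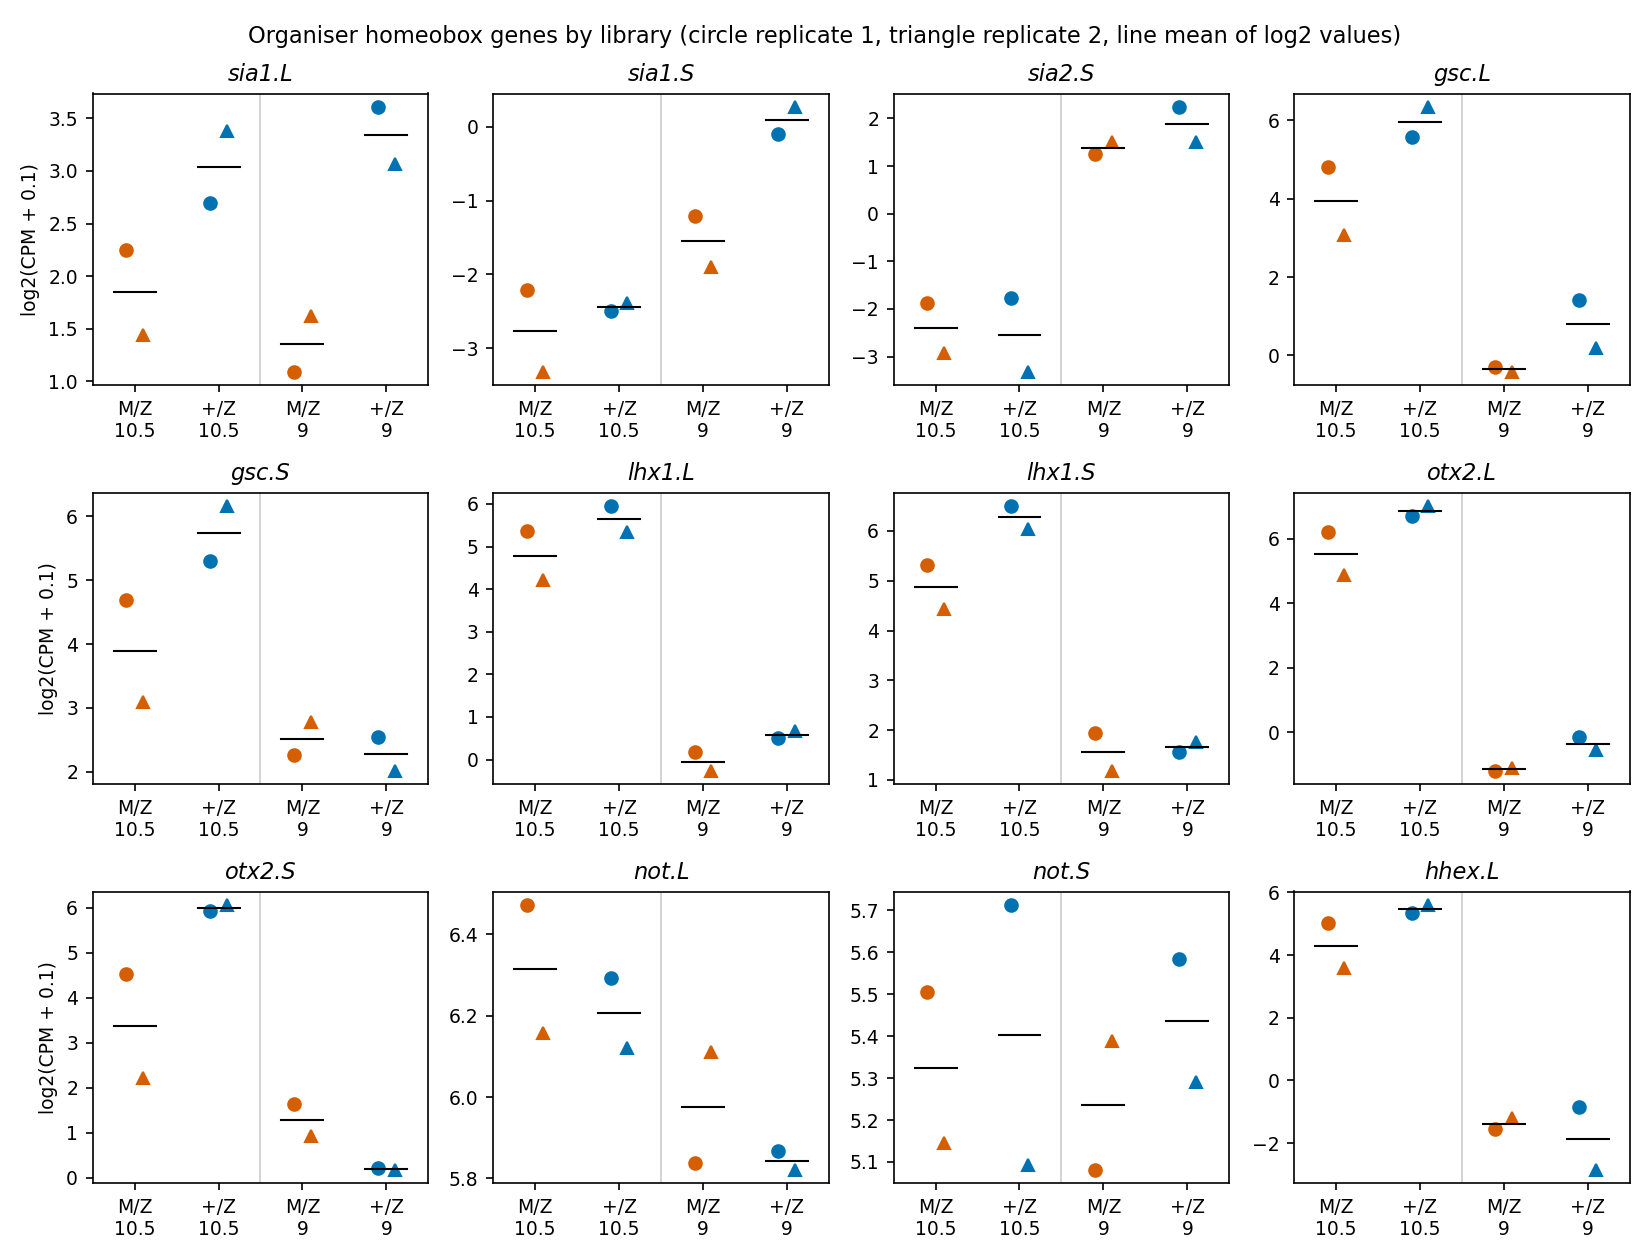
Level of each member in each library, 1 panel per gene copy, with stage 10.5 left of stage 9 and M/Z left of +/Z in each stage. The vertical axes are log2 of CPM with 0.1 added, so that zeros can be drawn, and their ranges differ between panels. Circles are replicate 1, triangles replicate 2, and lines the group means of the log2 values. At stage 10.5 both M/Z libraries lie below both +/Z libraries for 7 of the 12 copies, and the axes of *not.L* and *not.S* span the narrowest ranges.

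The dorsal Wnt target *sia1* was the one gene among the members that changed between genotypes at the late blastula. At stage 9, *sia1.L* had 2.03 and 2.98 CPM in M/Z embryos, against 12.1 and 8.29 CPM in +/Z embryos. The groups did not overlap, and M/Z embryos held 24.6% of the +/Z mean. The log2 fold change was -2.03 (SE 0.40, adjusted p = 0.00942, *edgeR*), with a 95% interval of -2.91 to -1.14. In whole embryos, fewer cells expressing a gene and less RNA per cell cannot be told apart, here and in all that follows. The fold change was between -2.33 and -1.72 when each library was left out in turn, and the adjusted p missed the threshold without M/Z stage 9 replicate 1 (0.106) or without +/Z stage 9 replicate 1 (0.0871).

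At stage 10.5 *sia1.L* had 4.64 and 2.62 CPM in M/Z embryos, against 6.38 and 10.3 CPM in +/Z embryos. The groups did not overlap here either, but the difference missed the threshold, with a log2 fold change of -1.20 (SE 0.39, adjusted p = 0.0707, *edgeR*). *DESeq2* gave -1.21 with an adjusted p of 0.0269. The genotype difference of *sia1.L* was 0.83 smaller in log2 units at stage 10.5 than at stage 9, and this change of the difference did not pass the test (SE 0.55, adjusted p = 0.579, *edgeR*).

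The remaining copies of the Siamois family were close to the detection limit at the gastrula. *sia1.S* was read 14 and 6 times in the M/Z libraries of stage 9, against 26 and 29 times in the +/Z libraries, and the groups did not overlap. Its log2 fold change of -1.92 had a wide error (SE 0.85) and missed the threshold (adjusted p = 0.186, *edgeR*). When only the 4 stage 9 libraries were fitted, *sia1.S* passed, with -1.91 and an adjusted p of 0.0163 (*edgeR*). *DESeq2* did not call it (adjusted p = 0.337). At stage 10.5 the M/Z libraries held 4 and 0 counts of *sia1.S* and the +/Z libraries 2 and 2, too few to show a difference at this depth. The sequences of the 2 copies of *sia1* were not compared here, and reads may have been divided wrongly between them. With both copies summed, *sia1* in M/Z embryos was 43.7% of its +/Z mean at stage 10.5 and 24.7% at stage 9.

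*sia2.S*, which encodes Twin, had 2.29 and 2.73 CPM in M/Z embryos at stage 9, against 4.64 and 2.75 CPM in +/Z embryos. The values are separate only by the narrow gap between 2.73 and 2.75 CPM, and the log2 fold change of -0.56 (SE 0.60, 95% interval -1.89 to 0.77) did not pass the test (adjusted p = 0.606, *edgeR*). The 2 genes thus had unequal differences at the late blastula, with *sia1.L* at 24.6% and *sia2.S* at 67.9% of the +/Z mean, but this inequality between genes was not tested. At stage 10.5 the M/Z libraries held 6 and 1 counts of *sia2.S* and the +/Z libraries 5 and 0, so no difference could be shown at this depth.

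Goosecoid, the homeodomain repressor encoded by *gsc*, is the classical marker of the organiser. At stage 10.5 *gsc.L* had 28.1 and 8.38 CPM in M/Z embryos, against 47.8 and 81.5 CPM in +/Z embryos. Its *gsc.S* copy had 25.7 and 8.44 CPM in M/Z embryos, against 39.3 and 71.8 CPM in +/Z embryos. Both copies were lower in both M/Z libraries than in either +/Z library, and in both the lowest value was that of M/Z replicate 2. *gsc.L* fell by 1.82 on the log2 scale (SE 0.53, adjusted p = 0.0497, *edgeR*), which is 3.54-fold. *gsc.S* fell by 1.70 (SE 0.48, adjusted p = 0.0464, *edgeR*), which is 3.24-fold. Both adjusted p-values are close to the threshold. Without M/Z replicate 1 the log2 fold changes were -2.94 for *gsc.L* and -2.71 for *gsc.S*. Without M/Z replicate 2 they were -1.19 and -1.10. For both copies the call was kept on leaving out replicate 1 of either genotype at stage 10.5 and lost on leaving out any other library, with adjusted p-values between 0.0601 and 0.187 for *gsc.L* and between 0.0653 and 0.198 for *gsc.S*. *DESeq2* gave *gsc.L* an adjusted p of 0.0860, which is no call, and *gsc.S* one of 0.00123. Both copies also missed the threshold with library totals (0.0582 for *gsc.L* and 0.0554 for *gsc.S*), with at least 10 counts asked of every library (0.0545 and 0.0519) and with the stage 10.5 libraries alone (0.0827 and 0.0954, *edgeR*).

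At stage 9 the copies of *gsc* were low and had unlike orders of the groups. *gsc.L* had 0.715 and 0.647 CPM in M/Z embryos, against 2.55 and 1.03 CPM in +/Z embryos, and the groups did not overlap. *gsc.S* had 4.70 and 6.75 CPM in M/Z embryos, against 5.74 and 3.93 CPM in +/Z embryos, which overlap. Neither passed the test, with log2 fold changes of -1.40 (SE 0.65, adjusted p = 0.210) for *gsc.L* and 0.24 (SE 0.50, adjusted p = 0.812, *edgeR*) for *gsc.S*. When only the 4 stage 9 libraries were fitted, *gsc.L* passed, with a log2 fold change of -1.40 and an adjusted p of 0.0277.

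*lhx1* encodes a LIM-homeodomain protein that is required for the head organiser in the mouse. At stage 10.5 *lhx1.S* had 39.8 and 21.5 CPM in M/Z embryos, against 90.8 and 66.1 CPM in +/Z embryos. It fell by 1.36 on the log2 scale (SE 0.33, adjusted p = 0.0283, *edgeR*), or 2.56-fold, and the groups did not overlap. *lhx1.L* had 41.1 and 18.4 CPM in M/Z embryos, against 62.1 and 40.7 CPM in +/Z embryos. For this copy M/Z replicate 1 lay just above +/Z replicate 2, so the groups overlapped, and the log2 fold change of -0.79 (SE 0.36, 95% interval -1.59 to 0.02) did not pass (adjusted p = 0.172, *edgeR*).

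The *lhx1.S* log2 fold change was -1.86 without M/Z stage 10.5 replicate 1 and -0.97 without M/Z stage 10.5 replicate 2. The call was lost without M/Z stage 10.5 replicate 2 (adjusted p = 0.125), without +/Z stage 10.5 replicate 1 (0.0865) and without either +/Z library of stage 9 (0.0536 and 0.0530), all by *edgeR*. It was also lost with both copies summed (log2 fold change -1.10, adjusted p = 0.0607) and with the stage 10.5 libraries alone (0.0529, *edgeR*), while *DESeq2* kept it (0.000749). At stage 9 both copies were low in all libraries. *lhx1.L* had 1.03 and 0.732 CPM in M/Z embryos, against 1.32 and 1.49 CPM in +/Z embryos. *lhx1.S* had 3.77 and 2.17 CPM in M/Z embryos, against 2.84 and 3.28 CPM in +/Z embryos. *lhx1.L* was lower in both M/Z libraries and *lhx1.S* overlapped, and neither passed the test (adjusted p = 0.396 and 0.969, *edgeR*).

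*otx2*, a homeobox gene of the head organiser, the anterior endoderm and the forebrain, had the largest genotype difference among the members at the mid-gastrula, in its .S copy. At stage 10.5 *otx2.S* had 23.1 and 4.53 CPM in M/Z embryos, against 61.0 and 66.9 CPM in +/Z embryos. The 2 +/Z libraries lay close together and the 2 M/Z libraries were 5.10-fold apart, with no overlap. *otx2.S* fell by 2.21 on the log2 scale (SE 0.57, adjusted p = 0.0345, *edgeR*), or 4.62-fold. The log2 fold change was -3.81 without M/Z stage 10.5 replicate 1 and -1.46 without M/Z stage 10.5 replicate 2, and the call stood in both fits. It was lost without either +/Z library of stage 10.5 (adjusted p = 0.0502 and 0.0874) or of stage 9 (0.0618 and 0.0614), and with the stage 10.5 libraries alone (0.0741, *edgeR*).

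*otx2.L* had 73.8 and 29.1 CPM in M/Z embryos at stage 10.5, against 103.8 and 129.5 CPM in +/Z embryos. The groups did not overlap, and the log2 fold change of -1.18 (SE 0.36) missed the threshold (adjusted p = 0.0569, *edgeR*). *DESeq2* gave -1.19 with an adjusted p of 0.00876, and with both copies summed *edgeR* gave -1.47 with an adjusted p of 0.0405.

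At stage 9 the *otx2* copies went opposite ways. *otx2.S* had 3.03 and 1.80 CPM in M/Z embryos, against 1.06 and 1.03 CPM in +/Z embryos. *otx2.L* had 0.334 and 0.366 CPM in M/Z embryos, against 0.806 and 0.573 CPM in +/Z embryos. Neither copy's groups overlapped: the .S copy was higher in both M/Z libraries and the .L copy was lower. The log2 fold changes were 1.21 for *otx2.S* (SE 0.67, adjusted p = 0.289) and -0.99 for *otx2.L* (SE 0.59, adjusted p = 0.326), and neither passed (*edgeR*). In the fit to the 4 stage 9 libraries alone *otx2.S* passed, with 1.21 and an adjusted p of 0.0214.

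*hhex*, a homeobox repressor of the anterior endoderm, was listed by its symbol in the .L copy only. At stage 10.5 *hhex.L* had 32.4 and 11.9 CPM in M/Z embryos, against 40.2 and 48.7 CPM in +/Z embryos. The groups did not overlap, and M/Z embryos held 49.9% of the +/Z mean, but the difference did not pass (SE 0.49, 95% interval of the log2 fold change -2.09 to 0.09, adjusted p = 0.197, *edgeR*). The .S copy stood in the table under the identifier LOC108697398, which a RefSeq gene table names *hhex.S*, so it was no member by the rule. It had 13.7 and 9.15 CPM in M/Z embryos at stage 10.5, against 20.9 and 14.9 CPM in +/Z embryos (log2 fold change -0.65, SE 0.31, adjusted p = 0.183, *edgeR*). At stage 9 *hhex.L* was nearly silent, with 10 and 12 counts in the M/Z libraries and 14 and 1 in the +/Z libraries, which overlap.

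*not* encodes a homeodomain protein of the notochord precursors, for which the zebrafish homologue is required. At stage 10.5 *not.L* had 88.7 and 71.3 CPM in M/Z embryos, against 78.3 and 69.5 CPM in +/Z embryos. At stage 9 it had 57.1 and 69.1 CPM in M/Z embryos, against 58.2 and 56.4 CPM in +/Z embryos. The groups overlapped at both stages. The 95% intervals of the log2 fold change of *not.L* were -0.29 to 0.52 at stage 10.5 and -0.26 to 0.54 at stage 9, so a change of 2-fold lay outside them.

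*not.S* had 45.3 and 35.3 CPM in M/Z embryos at stage 10.5, against 52.4 and 34.0 CPM in +/Z embryos. At stage 9 it had 33.8 and 41.8 CPM in M/Z embryos, against 47.8 and 39.1 CPM in +/Z embryos. These groups overlapped as well, and the intervals were -0.66 to 0.45 at stage 10.5 and -0.76 to 0.35 at stage 9. Summed over both copies, *not* in M/Z embryos was 103% of the +/Z mean at stage 10.5 and 100.1% at stage 9.

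**Figure D2:**
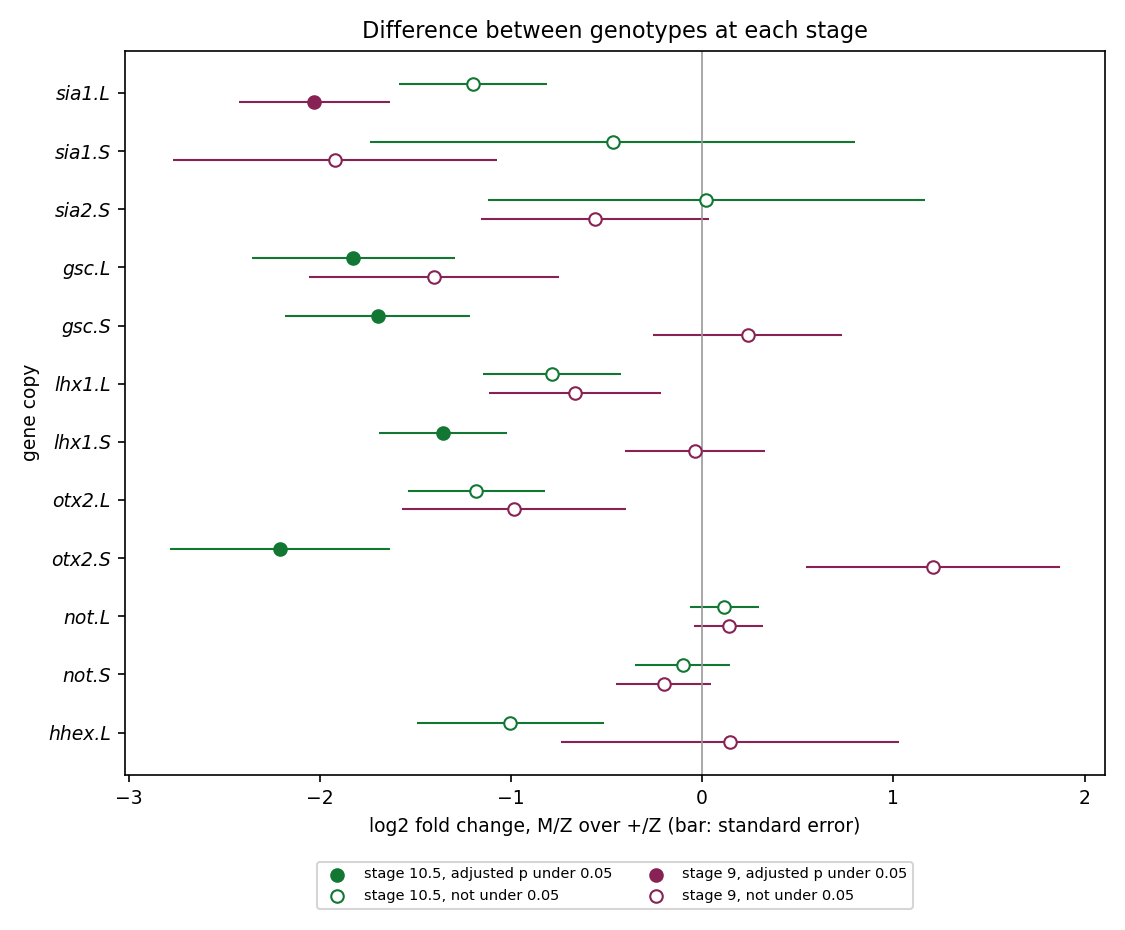
Log2 fold change of M/Z over +/Z for each gene copy (horizontal axis), with stage 10.5 drawn above stage 9. Bars are standard errors, and filled points had an adjusted p under 0.05 (*edgeR*, all 8 libraries in 1 fit). Filled points are *gsc.L*, *gsc.S*, *lhx1.S* and *otx2.S* at stage 10.5 and *sia1.L* at stage 9.

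Across the members, 4 of 12 fell in M/Z embryos at stage 10.5 and 0 rose, against 6.39% and 6.68% of all genes tested. At an unadjusted p under 0.05 there were 6 of 12, against 7752 of the 25448 genes tested (*edgeR*). At stage 9, 1 of 12 fell and 0 rose, against 5.93% and 6.01% of all genes. There 2 of 12 had an unadjusted p under 0.05, against 6636 of the 25448 genes tested (*edgeR*). The median log2 fold change of the members was -1.09 at stage 10.5 and -0.38 at stage 9, where the medians of all genes were 0.02 and 0. Both M/Z libraries were below both +/Z libraries for 7 of 12 members at stage 10.5 and for 6 of 12 at stage 9, where 27.1% and 31.8% of all genes had this order. The 7 copies were *sia1.L*, *gsc.L*, *gsc.S*, *lhx1.S*, *otx2.L*, *otx2.S* and *hhex.L*.

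The number of all genes called at stage 10.5 depended on the fit. It was 3325 in the fit reported, 4320 with *DESeq2* and 1218 when only the 4 libraries of stage 10.5 were fitted. The number of members that passed at stage 10.5 also depended strongly on the fit. Against the fit reported, this number moved in the same direction as that of all genes called in every fit given here. It was 8 without M/Z stage 10.5 replicate 1, 1 without M/Z stage 10.5 replicate 2 or without +/Z stage 10.5 replicate 2, 2 without either M/Z library of stage 9, 0 without either +/Z library of stage 9, 5 with *DESeq2*, and 0 when only the 4 libraries of stage 10.5 were fitted. At stage 9 it was 0 without M/Z stage 9 replicate 1 or +/Z stage 9 replicate 1, and 2 without either M/Z library of stage 10.5, where *otx2.S* was the addition, higher in M/Z embryos.

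Marker lists of the germ layers and of the germ plasm were summed beside these differences. The endoderm list (14 gene copies, among them *sox17a*, *sox17b.1* and *gata4*) summed to 1119 and 778 CPM in M/Z embryos at stage 10.5, against 1433 and 1485 CPM in +/Z embryos, and 4 of its 14 copies fell and 0 rose, where 6.39% of all genes fell and 6.68% rose. The mesoderm list (10 copies) summed to 654 and 435 CPM in M/Z embryos, against 611 and 574 CPM in +/Z embryos, and the ectoderm list (13 copies) to 2305 and 1997 CPM in M/Z embryos, against 2206 and 1952 CPM in +/Z embryos. A list of maternal germ plasm RNAs (7 genes) summed to 404 and 654 CPM in M/Z embryos, against 277 and 364 CPM in +/Z embryos. Endoderm sums were thus lower and germ plasm sums higher in M/Z embryos at stage 10.5, and the other 2 overlapped. At stage 9 endoderm sums were lower in M/Z embryos too. Germ plasm sums had the opposite order at stage 9 (615.8 and 590.8 CPM in M/Z, against 769.5 and 813.6 CPM in +/Z embryos). The widest gap there was that of *grip2.L*, with 86.2 and 78.2 CPM in M/Z, against 222.8 and 227.7 CPM in +/Z embryos. *ddx25.L* and *dnd1.L* had the same order, and *nanos1.L* and *pgat.L* the opposite. The list's median log2 fold change was -0.05 at stage 9 and 0.86 at stage 10.5, where *pgat.L* had the widest gap (138 and 192 CPM, against 61.5 and 80.9 CPM). The part of these shifts in the results for *gsc*, *lhx1*, *otx2* and *hhex*, some of which are themselves expressed in mesendoderm, was not tested.

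The members differed in how they changed with time. Both copies of *gsc*, *lhx1* and *otx2* and *hhex.L* rose between stage 9 and stage 10.5 in each genotype, *sia2.S* fell in each, *sia1.S* fell in +/Z embryos and did not pass the test in M/Z embryos, and *sia1.L*, *not.L* and *not.S* did not pass in either. In M/Z embryos 7 of 12 members rose and 1 fell, where 16.7% of all genes rose and 15.6% fell. In +/Z embryos 7 rose and 2 fell, where 23.3% of all genes rose and 23.2% fell. The comparisons in the 2 genotypes share no libraries.

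The steepest rises were those of *otx2.L* and *hhex.L*. *otx2.L* rose by 7.19 on the log2 scale in M/Z embryos (SE 0.51, adjusted p = 3.07e-05, *edgeR*) and by 7.38 in +/Z embryos (SE 0.50, adjusted p = 1.98e-05), which is 145.8-fold and 166.8-fold. The difference between these rises was -0.19 in log2 units, with a 95% interval of -1.81 to 1.42. *hhex.L* rose by 6.26 in M/Z embryos (SE 0.67, adjusted p = 0.000227) and by 7.41 in +/Z embryos (SE 0.71, adjusted p = 8.34e-05, *edgeR*). These last folds rest on 22 counts in M/Z and 15 counts in +/Z embryos at stage 9.

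*gsc.L* rose by 4.73 in M/Z embryos (SE 0.65, adjusted p = 0.000773) and by 5.16 in +/Z embryos (SE 0.63, adjusted p = 0.000248, *edgeR*). *lhx1.L* rose by 5.07 in M/Z embryos and by 5.19 in +/Z embryos, with adjusted p-values of 8.24e-05 and 5.35e-05 (*edgeR*). The differences between the genotypes' rises had wide 95% intervals, of -2.32 to 1.47 for *gsc.L* and -1.44 to 1.19 for *lhx1.L*.

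In every member that rose, the rise was less steep in M/Z than in +/Z embryos by the fitted values. The difference was -0.42 for *gsc.L*, -0.12 for *lhx1.L* and -0.19 for *otx2.L*, and it was larger in their .S copies. The copies were not tested against each other. The .S copy of *hhex* (LOC108697398) differed, and rose by 4.29 in M/Z and by 4.12 in +/Z embryos. For *hhex.L* the difference between the rises was -1.15 (SE 1.01, adjusted p = 0.688, *edgeR*). *otx2.S* rose by 2.51 log2 units in M/Z embryos (adjusted p = 0.0118), against 5.93 in +/Z embryos (adjusted p = 0.000228, *edgeR*). *lhx1.S* rose by 3.36 in M/Z embryos, against 4.68 in +/Z embryos. *gsc.S* rose by 1.58 in M/Z embryos (adjusted p = 0.0338), against 3.52 in +/Z embryos. The test of this difference (the change of the genotype effect between stages) gave log2 values of -3.42 for *otx2.S* (SE 0.87, unadjusted p = 0.00302, adjusted p = 0.270), -1.94 for *gsc.S* (SE 0.69, unadjusted p = 0.0188, adjusted p = 0.377) and -1.32 for *lhx1.S* (SE 0.49, unadjusted p = 0.0239, adjusted p = 0.393), so none of the 3 passed over all genes tested (*edgeR*).

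Of all 12 members, 0 passed this test with *edgeR* and 0 with *DESeq2*, and 0.0472% of all genes passed with *edgeR*. At an unadjusted p under 0.05 there were 3 of 12 members, against 2844 of the 25448 genes tested (*edgeR*). Without M/Z stage 10.5 replicate 1, *otx2.S* and *gsc.S* passed (adjusted p = 0.00240 and 0.0246, *edgeR*). The stage changes of *gsc.S* and *otx2.S* in M/Z embryos also rested on that library: without it they were 0.56 and 0.89 in log2 units and missed the threshold (adjusted p = 0.376 and 0.0777), and without M/Z stage 9 replicate 2 they missed it as well (0.0807 and 0.0821). For *gsc.S* leaving out M/Z stage 9 replicate 1 also lost the call (0.198, *edgeR*).

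**Figure D3:**
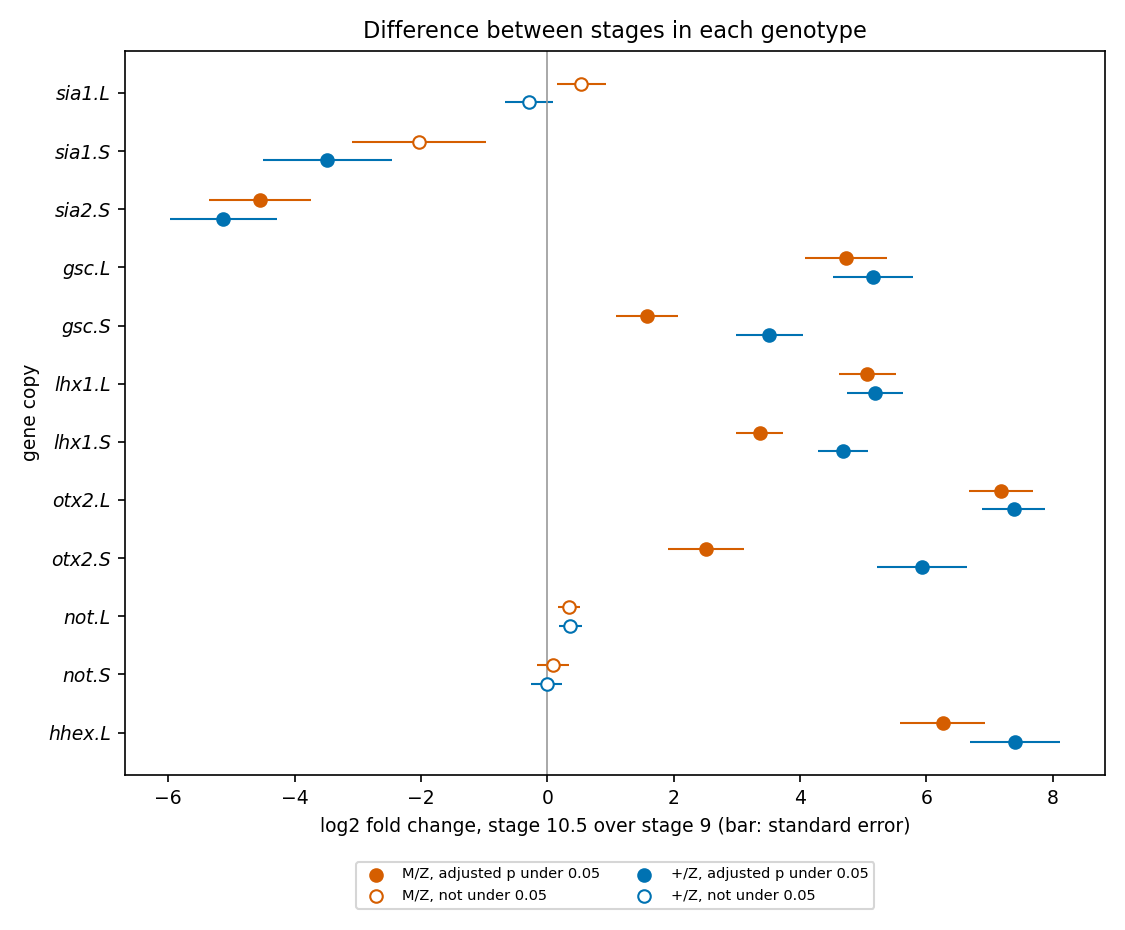
Log2 fold change of stage 10.5 over stage 9 for each gene copy (horizontal axis), with M/Z drawn above +/Z. Bars are standard errors and filled points had an adjusted p under 0.05 (*edgeR*). *gsc*, *lhx1*, *otx2* and *hhex.L* lie right of 0 in each genotype, *sia2.S* lies left of it, and *not.L* and *not.S* lie near it.

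*sia2.S* was lower at stage 10.5 than at stage 9. It had 7 counts in M/Z embryos at stage 10.5 over both libraries, against 193 at stage 9, and after scaling for depth the level was 23.9-fold lower (95% counting interval 11.4 to 60.2). In +/Z embryos it had 5 counts at stage 10.5, against 216 at stage 9, a level 36.4-fold lower (15.4 to 113). Both falls passed the test (adjusted p = 0.00294 in M/Z and 0.00109 in +/Z embryos, *edgeR*).

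*sia1.S* had 4 counts in +/Z embryos at stage 10.5, against 55 at stage 9, a ratio of 0.0863 (95% counting interval 0.0227 to 0.234, adjusted p = 0.0190, *edgeR*). In M/Z embryos it had 4 counts at stage 10.5, against 20 at stage 9, a ratio of 0.231 (0.0574 to 0.689), and did not pass the test (adjusted p = 0.169). The call in +/Z embryos was lost without any one of the 4 +/Z libraries (adjusted p between 0.0618 and 0.107, *edgeR*). The more abundant *sia1.L* was not called in either genotype, with log2 changes of 0.54 in M/Z embryos (SE 0.39, adjusted p = 0.324) and -0.29 in +/Z embryos (SE 0.38, adjusted p = 0.553, *edgeR*).

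The share of reads assigned to each copy was also described, as the .L reads over the reads of both copies. These shares compare libraries with each other and not the copies with each other, since the counts were not corrected for transcript length. For *otx2* at stage 10.5 the .L copy took 76.2% and 86.5% of reads in M/Z embryos, against 63.0% and 65.9% in +/Z embryos. At stage 9 it took 9.93% and 16.9% in M/Z embryos, against 43.1% and 35.7% in +/Z embryos. The order of the genotypes was thus opposite at the 2 stages with no overlap at either, and the exact 95% binomial intervals of the nearest libraries were apart at stage 10.5 (74.7 to 77.6% against 64.5 to 67.3%) and overlapped at stage 9 (9.31 to 27.1% against 21.6 to 52.0%).

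For *gsc* the .L share was 52.2% and 49.8% in M/Z embryos at stage 10.5, against 54.9% and 53.2% in +/Z embryos, and 13.2% and 8.75% in M/Z embryos at stage 9, against 30.7% and 20.8% in +/Z embryos. For *lhx1* it was 50.8% and 46.2% in M/Z embryos at stage 10.5, against 40.6% and 38.1% in +/Z embryos, and 21.4% and 25.2% in M/Z embryos at stage 9, against 31.8% and 31.2% in +/Z embryos. For *lhx1*, as for *otx2*, the order of the genotypes was thus opposite at the 2 stages with no overlap at either. At stage 9 the .L shares of *gsc*, *lhx1* and *otx2* were lower in both M/Z libraries than in either +/Z library. The binomial intervals of the nearest libraries overlapped for all 3 genes. For *not* the order at stage 9 was the opposite, with 62.9% and 62.3% in M/Z embryos, against 54.9% and 59.1% in +/Z embryos. The stage 9 shares of *sia1* and of *hhex*, with LOC108697398 as its .S copy, overlapped between genotypes. In *gsc*, *lhx1*, *otx2*, *sia1* and *hhex* every stage 10.5 library had a higher .L share than any stage 9 library. This was not so for *not*, with .L shares between 54.9% and 67.1% over the 8 libraries. The shares are descriptions without a test, and an error in how reads were divided between the copies would move them. How many homeolog pairs among all genes had these orders was not counted, so none can be called particular to these genes.

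**Figure D4:**
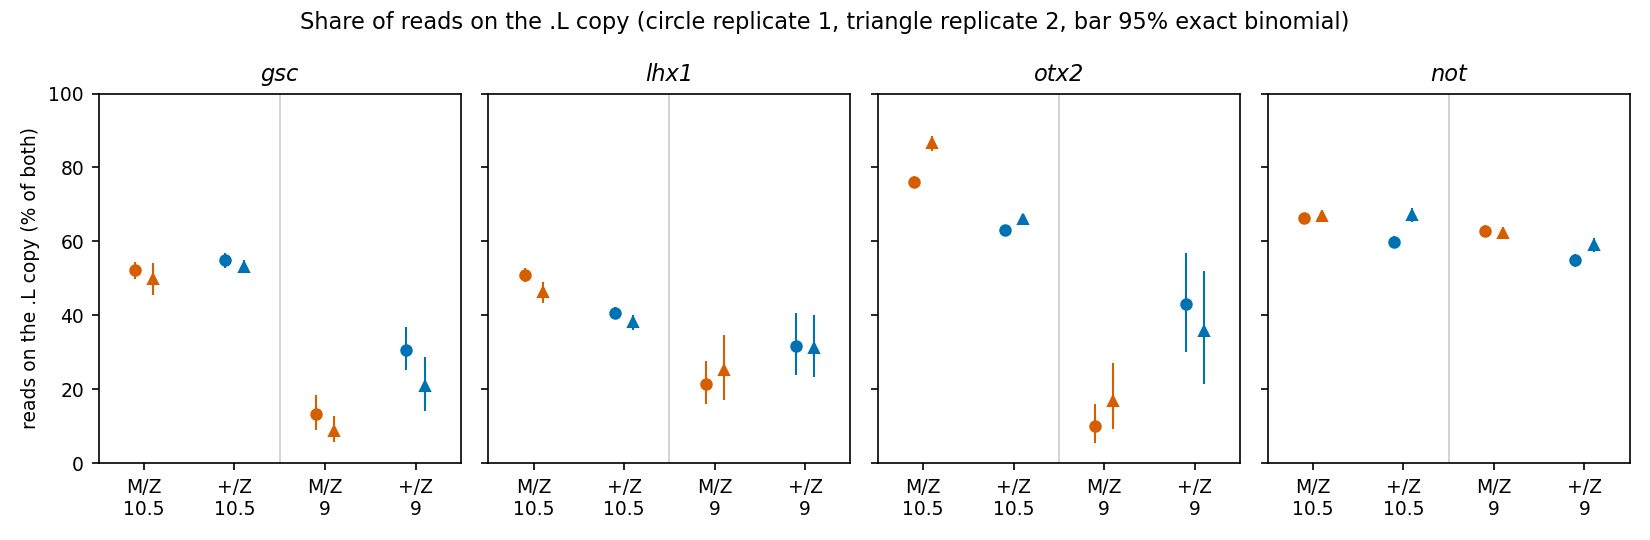
Percentage of the reads of both copies that were assigned to the .L copy (vertical axis) in each library, for *gsc*, *lhx1*, *otx2* and *not*, stage 10.5 left of stage 9 and M/Z left of +/Z. Bars are exact 95% binomial intervals, which cover counting error only. *not* stays between 54.9% and 67.1%, while the shares of *gsc*, *lhx1* and *otx2* are higher at stage 10.5 than at stage 9.

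Genes that act with the members were counted from lists chosen by name, also with earlier results of these data known. The counts stand beside the shares of all genes tested, of which 6.39% were called lower and 6.68% higher at stage 10.5, and 5.93% lower and 6.01% higher at stage 9. A count such as 2 of 24 or 2 of 26 copies is near these shares. The secreted antagonists and signals of the organiser had 6 of 19 copies lower in M/Z embryos at stage 10.5 and 0 higher, with a median log2 fold change of -1.79. *nodal3.2.L*, a Nodal-related signal that is a direct target of dorsal Wnt signalling, had 3.06 and 1.33 CPM in M/Z embryos, against 9.29 and 16.5 CPM in +/Z embryos (log2 fold change -2.55, SE 0.42, adjusted p = 0.00481, *edgeR*). *nog.L*, which encodes the BMP antagonist Noggin, had 1.87 and 1.14 CPM in M/Z embryos, against 7.76 and 10.9 CPM in +/Z embryos (-2.62, SE 0.44, adjusted p = 0.00513). For both genes M/Z replicate 2 was the lowest library of its stage, as for *gsc* and *otx2*. At stage 9, 2 of 19 were lower and 0 higher, with a median of -0.93.

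The other transcription factors of the organiser had 2 of 14 copies lower and 0 higher at stage 10.5 (median -1.12), and 2 lower and 1 higher at stage 9 (median -0.64). *foxa4.S*, a forkhead gene of the dorsal midline, had 148 and 107 CPM in M/Z embryos at stage 10.5, against 247 and 247 CPM in +/Z embryos (-0.96, SE 0.23, adjusted p = 0.0234, *edgeR*). *otx1.S*, a relative of *otx2*, was the copy that was higher at stage 9, with 9.37 and 11.8 CPM in M/Z embryos, against 1.26 and 1.18 CPM in +/Z embryos (3.11, SE 0.35, adjusted p = 0.000448). *otx1.S* and *otx2.S* thus had the same order of groups at the late blastula, although *otx2.S* did not pass the test. The .L copies did not share this order. *otx1.L* overlapped, with 83.1 and 83.9 CPM in M/Z embryos, against 77.3 and 97.9 CPM in +/Z embryos, and *otx2.L* was lower in both M/Z libraries.

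Genes that act upstream of the members, in the β-catenin, VegT and Nodal pathways, had 2 of 26 copies lower and 1 higher in M/Z embryos at stage 10.5 (median -0.10), and 5 lower and 0 higher at stage 9 (median -0.41). *vegt.S*, a maternal T-box gene of the vegetal pole, had 201 and 213 CPM in M/Z embryos at stage 9, against 321 and 327 CPM in +/Z embryos (-0.65, SE 0.16, adjusted p = 0.0294, *edgeR*). *nodal1.L*, a Nodal ligand, had 0.620 and 0.703 CPM in M/Z embryos at stage 9, against 2.93 and 2.98 CPM in +/Z embryos (-2.16, SE 0.32, adjusted p = 0.00227). Both genes had the same order of groups as *sia1.L* at this stage, as did 31.8% of all genes tested. They were named for their small p, so this order tells nothing further about the list.

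Cofactors of the homeobox proteins, such as the Groucho/TLE corepressors and the Ldb and Ssbp adaptors of Lhx1, had 3 of 13 copies lower and 0 higher at stage 10.5 (median -0.35), and 1 lower and 0 higher at stage 9 (median -0.26). *tle2.S*, of the Groucho/TLE group, was lower at each stage, with 64.8 and 54.0 CPM in M/Z embryos at stage 10.5, against 92.7 and 92.2 CPM in +/Z embryos (-0.64, SE 0.17, adjusted p = 0.0354), and with a log2 fold change of -0.98 at stage 9 (SE 0.17, adjusted p = 0.00498, *edgeR*). Homeobox genes expressed mainly outside the organiser, such as the ventral *ventx* genes and the mesendodermal *mix1* and *mixer*, had 2 of 24 copies lower and 0 higher at stage 10.5 (median -0.11), and 5 lower and 0 higher at stage 9 (median -0.59). *ventx3.2.S* had 1.65 and 1.89 CPM in M/Z embryos at stage 9, against 5.29 and 5.12 CPM in +/Z embryos (-1.56, SE 0.30, adjusted p = 0.00917, *edgeR*). The list medians stand beside all-gene medians of 0.02 at stage 10.5 and 0 at stage 9.

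**Figure D5:**
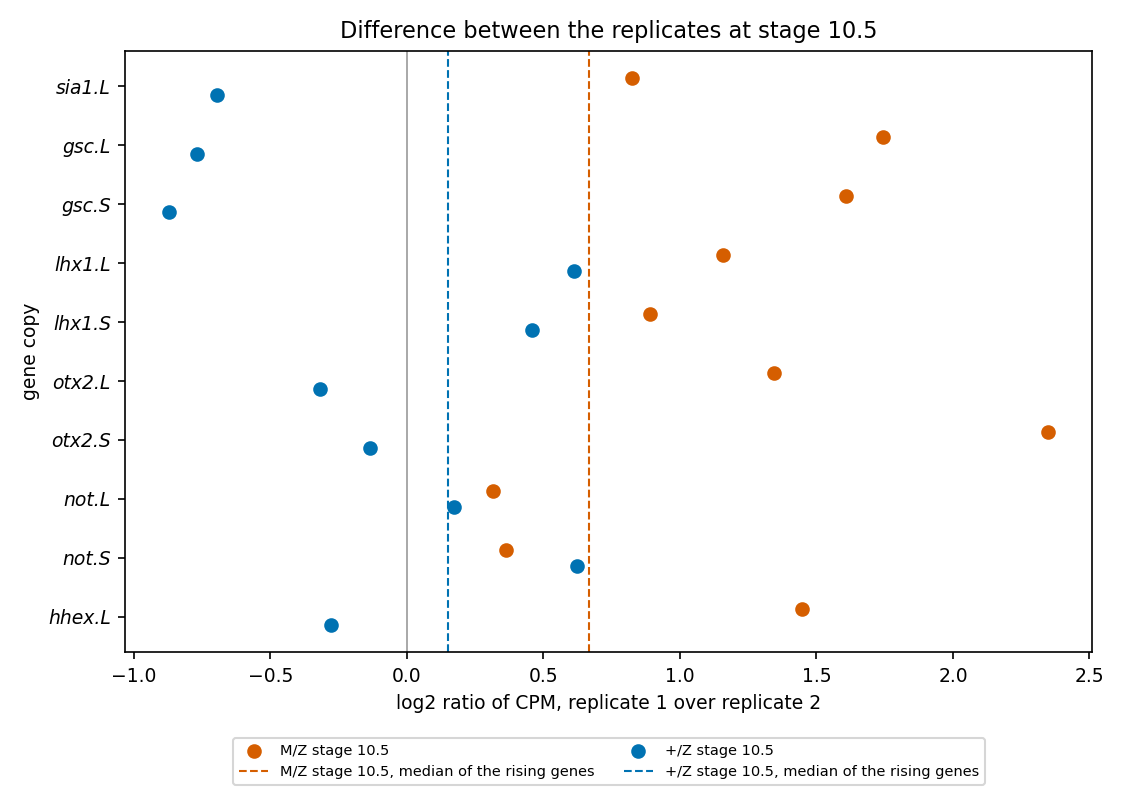
Log2 ratio of CPM in replicate 1 over replicate 2 at stage 10.5 (horizontal axis) for the 10 members detected above the 3-count limit in each of the 4 libraries of this stage. Dashed lines are the medians over 2654 genes that were over 4-fold higher at stage 10.5 than at stage 9 in +/Z embryos. All M/Z points lie right of 0, and those of *not.L* and *not.S* are the lowest among them.

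The spread between the M/Z pools at stage 10.5 differed from member to member. The ratio of replicate 1 to replicate 2 was 5.10 for *otx2.S*, 3.35 for *gsc.L*, 3.05 for *gsc.S*, 2.73 for *hhex.L*, 2.54 for *otx2.L*, 2.23 for *lhx1.L*, 1.86 for *lhx1.S* and 1.77 for *sia1.L*. For *not.L* and *not.S* it was 1.25 and 1.29. *sia1.S* and *sia2.S* were too sparse for a ratio. Among the other 10 copies, the pools were furthest apart in *otx2.S* and closest in *not*, and *lhx1.S*, which fell between genotypes, had one of the smaller ratios.

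The genes whose levels ran most like each member over the 8 libraries were found by Pearson's r of log2 CPM, for the more abundant copy of each gene. The 8 points fall into 4 groups and share libraries and depth, so these values describe likeness of profile only. The choice of genes depended on the measure: by Spearman's rho, 16 of the 21 nearest genes (3 for each of 7 copies) were no longer among the nearest 3, among them every one for *gsc.S*, *not.L*, *sia2.S* and *hhex.L*, although the rho of the 21 genes was between 0.929 and 1. For *sia1.L* the nearest of 15441 genes were *tp53rk.L* (r = 0.994), *tspyl2.L* (0.982) and *harbi1.L* (0.978), and 24 genes reached 0.95. For *not.L* they were *retsat.L* (0.981), *cpvl.L* (0.966) and *ctc1* (0.964), and 6 genes reached 0.95. Of the 7 copies, these had the fewest genes at 0.95, followed by *sia2.S* with 54, led by *rfx5.S* (0.988). The members that rose with gastrulation had more. For *gsc.S* 385 genes reached 0.95, for *lhx1.S* 958, for *hhex.L* 952 and for *otx2.L* 1150, with *rps6.S* (0.992), *nipal2.L* (0.998), *cnn1.S* (0.998) and *pkdcc.1.L* (0.998) among the 3 nearest in the same order of members.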

How the data were processed

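RNA of 8 pools of 3 embryos was sequenced from a stranded mRNA kit. The authors used *Bowtie2* to map reads to *X. laevis* genome 9.2 and quantified them with *RSEM* (1.3.0 in the submitters' processing notes) in the CSBB pipeline 3.0, and deposited expected counts per gene, which were whole numbers and were used as listed. *RSEM* divides reads between similar copies. The annotation and the strand setting are not given in the sources used here.

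The test was that of *edgeR* 4.0.16, run in R 4.3.3 (filterByExpr, TMM, glmQLFit and glmQLFTest), with all 4 groups in 1 fit, so that they share 1 estimate of the spread, and Benjamini-Hochberg adjustment over 25448 genes. *DESeq2* 1.42.0, other scalings and filters, summed homeologs, fits per stage or genotype, a replicate block and the omission of each library were alternatives. Scripts were tested on simulated data. SEs were derived from the F statistic.

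Members and lists were chosen with earlier results of these data known. All members are named. Of each other list, up to 4 genes with the smallest p could be named. Likeness used genes of a mean of at least 1 CPM, without the member's own homeolog and without identifiers starting with LOC or XB. Names came also from a RefSeq gene table of assembly 10.1, in which 11 of 12 members matched, all but *sia1.S*.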

Additional observations from a re-analysis of the deposited data

Results flagged for a closer look

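*otx2.S* stood out because the genotype difference had opposite signs at the 2 stages in every library. It was lower in both M/Z libraries at stage 10.5, with 23.1 and 4.53 CPM against 61.0 and 66.9 CPM in +/Z embryos, and higher in both at stage 9, with 3.03 and 1.80 CPM against 1.06 and 1.03 CPM in +/Z embryos. The test of the difference between the stages gave -3.42 in log2 units (SE 0.87) and did not pass over all genes (adjusted p = 0.270, *edgeR*, range 0.00240 to 0.641 on leaving out each library).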

How the results depend on the processing

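With 2 pools a group, 1 library decides most calls at stage 10.5, and the sparse counts of *sia1.S*, *sia2.S* and, at stage 9, *hhex.L* limit what can be shown. Scaling to library totals moved the median log2 fold change of all genes by 0.20 at stage 10.5, -0.20 between stages in M/Z and -0.30 in +/Z embryos, and by 0.11 in the difference between stages. The share of calls that were higher was then 70.5% in place of 51.1%, 37.5% in place of 51.6% and 34.4% in place of 50.1% in the first 3 of these. Causes of the changes below were not tested.

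Of the members, 4 were called at stage 10.5, and 2 with library totals, 8 without a filter, 2 of 9 tested with at least 10 counts in every library, 2 with the replicate block, 0 of 10 tested with only the 4 libraries of the stage, and 0 to 8 with each library left out. At stage 9, 1 was called, and 3 without a filter and 4 with only the stage's libraries. With homeologs summed the count was 2, but only because the summed *sia1* (adjusted p = 0.00764, *edgeR*) was counted once for each of its copies. The difference between stages gave 0, and 3 without a filter and 0 to 2 with each library left out. The stage comparisons gave 8 members in M/Z and 9 in +/Z embryos, and 6 to 8 and 8 to 9 with each library left out. Over all genes, 3325 were called at stage 10.5, and 5494 without a filter, 1917 with the replicate block, 1218 with the stage alone and 1520 to 5227 with each library left out. At stage 9, 3040 were called, and 1894 with at least 10 counts, 2013 with the replicate block, 7130 with the stage alone and 1076 to 3762 with each library left out. Between stages 8219 genes were called in M/Z embryos, and 3332 to 9263 with each library left out. The +/Z embryos gave 11833, and 7625 to 12403 with each library left out. The difference between stages called 12, and 915 without a filter, 6 with at least 10 counts, 277 with *DESeq2*, 5 with the replicate block and 0 to 732 with each library left out.

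The replicate differences of the genotypes had a correlation of -0.00893 at stage 10.5 and -0.0149 at stage 9 over genes. The labels do not say whether equal replicate numbers share a clutch, and this correlation cannot decide it. With the block *gsc.L* and *gsc.S* lost their calls at stage 10.5 (adjusted p = 0.0799 and 0.0982, *edgeR*).

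Signs turned in differences that were small or sparse, none of them called. With homeologs summed, log2 values were 0.038 for *not* (reported value for *not.S* -0.10) at stage 10.5, -0.060 for *gsc* (*gsc.S* 0.24), 0.67 for *otx2* (*otx2.L* -0.99) and -0.0043 for *not* (*not.L* 0.14) at stage 9, 0.42 for *sia1* between stages in M/Z embryos (*sia1.S* -2.03), 0.21 for *not* between stages in +/Z embryos (*not.S* -0.01) and 0.042 for *not* in the difference between stages (*not.L* -0.02). With library totals they were 0.090 for *not.S* at stage 10.5, 0.050 for *lhx1.S* at stage 9, -0.12 for *not.S* between stages in M/Z embryos and 0.080 for *not.L* in the difference between stages. *not.S* between stages in +/Z embryos was 0.023 with DESeq2 size factors, 0.015 with *DESeq2*, 0.060 with at least 10 counts, 0.034 with the genotype alone and 0.21 with the replicate block. On leaving out each library, the log2 values at stage 10.5 ran between -4.42 and 0.46 for *sia1.S*, -1.60 and 4.78 for *sia2.S*, -0.045 and 0.28 for *not.L*, and -0.38 and 0.25 for *not.S*. At stage 9 they ran between -0.043 and 0.55 for *gsc.S*, -0.49 and 0.30 for *lhx1.S*, -0.0021 and 0.27 for *not.L*, and -0.66 and 2.79 for *hhex.L*. Between stages they ran between -0.11 and 0.26 for *not.S* in M/Z embryos. The +/Z ranges were -0.69 to 0.0038 for *sia1.L* and -0.37 to 0.26 for *not.S*. In the difference between stages they ran between -2.50 and 2.38 for *sia1.S*, -1.04 and 5.34 for *sia2.S*, -1.54 and 0.21 for *gsc.L*, -0.81 and 0.35 for *lhx1.L*, -1.01 and 0.34 for *otx2.L*, -0.18 and 0.13 for *not.L*, and -0.18 and 0.45 for *not.S*.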
